A study of Homo sapiens with 15 samples.

Results

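The transcription factors GATA1, GATA2, TAL1, LMO2, LYL1, KLF1, NFE2, ZFPM1, RUNX1 and GFI1B, which set up and maintain the erythroid and megakaryocytic programmes, were examined for G-quadruplex (G4) signal at their own genes. A G4 is a 4-stranded fold of DNA rich in guanine, in which planes of G bases stack on one another. Chromatin of K562, an established human leukaemia line with erythroid features that was growing asynchronously, had been precipitated with BG4, an antibody against G4s, and sequenced. Biological replicate 1 had 2 technical libraries (1a and 1c) and biological replicate 2 had 3 (2a, 2b and 2c). All 5 libraries share this 1 condition, so no comparison of conditions exists, and no test was run. A region or peak was assigned to a factor when it lay within 1 kb of a GENCODE start site of a protein-coding transcript or inside the gene. In all, 15 of the 8955 regions of the authors' high-confidence list and 98 of the 50770 peaks of the library lists belonged to these 10 of 19769 protein-coding genes.

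The lists held 8059 to 12495 peaks per library, and the number of reads behind them is unknown. Joining the stretches under peaks of at least 3 of the 5 libraries gave all 8955 high-confidence regions base for base. The 15 regions on the mitochondrial chromosome were left out, so 8940 were compared. Peak names inside the list of library 2a bear the letter c and those inside the list of 2c the letter a. The sample labels were followed, so values given for 2a may belong to 2c and the reverse. Peak lists hold no expression, so the cell line could not be checked against expressed markers. A start-site region was found at 2 of 9 erythroid marker genes (TFRC and EPOR) and at 1 of 7 marker genes of other cell types (SFN). Gene copy number in this line was not measured here.

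GATA1 is the main activator of red cell and platelet-precursor genes and binds GATA sites in DNA. Of such sites only the letters AGATAA or TGATAA were searched here. GATA2 occupies many of the same sites in progenitors before GATA1 replaces it. TAL1 or its close relative LYL1 pairs with an E protein on E-boxes (CANNTG), and LMO2 bridges that pair to GATA factors through the adaptor LDB1. ZFPM1 (FOG1) is the cofactor that GATA1 needs for much of its activation and repression. KLF1 drives adult beta-globin transcription, NFE2 is the subunit that pairs with small MAF proteins at globin and platelet genes, RUNX1 is needed to form blood stem cells and for megakaryocyte maturation, and GFI1B is a repressor required in both lineages.

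The regions whose sequence carried a G4 motif are shown first, so that the motif can be read in them. A G4 motif needed 4 G-runs, each at least 3 long, parted by loops of 1 to 7 bases. It could lie on either strand but had to lie within the region. All sequences are the GRCh37 reference genome on the strand of the gene, 5′ to 3′, with capitals marking the motif. The TAL1 region was chr1:47697910-47698182, and the ZFPM1 stretch was chr16:88519090-88519389, the part of its region farthest upstream. The KLF1 stretch was chr19:12995913-12996212, the part of its region centred on the motif. Of the LYL1 region only the motif itself, chr19:13213571-13213600, is printed, since that region is untranslated exon.
TAL1 start-site region: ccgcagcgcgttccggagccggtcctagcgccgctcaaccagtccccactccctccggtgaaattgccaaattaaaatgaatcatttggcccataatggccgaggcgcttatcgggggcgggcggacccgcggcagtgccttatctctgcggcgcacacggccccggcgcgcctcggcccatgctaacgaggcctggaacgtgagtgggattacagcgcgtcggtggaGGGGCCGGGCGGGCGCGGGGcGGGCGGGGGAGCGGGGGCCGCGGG
ZFPM1 start-site region: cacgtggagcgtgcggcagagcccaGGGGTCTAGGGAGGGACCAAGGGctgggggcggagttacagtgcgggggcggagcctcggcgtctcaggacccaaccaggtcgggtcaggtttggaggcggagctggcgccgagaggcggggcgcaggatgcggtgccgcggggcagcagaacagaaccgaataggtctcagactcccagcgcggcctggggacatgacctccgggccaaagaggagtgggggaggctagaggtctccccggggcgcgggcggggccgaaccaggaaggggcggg
KLF1 region inside the gene: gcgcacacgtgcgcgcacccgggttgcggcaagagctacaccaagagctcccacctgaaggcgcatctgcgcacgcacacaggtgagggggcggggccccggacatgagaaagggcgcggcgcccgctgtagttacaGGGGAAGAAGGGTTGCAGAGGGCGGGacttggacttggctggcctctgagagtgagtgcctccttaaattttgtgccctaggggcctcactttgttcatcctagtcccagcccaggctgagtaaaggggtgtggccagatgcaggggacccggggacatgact
LYL1 start-site motif: GGGGGCGGGGAGAAGGCGGGCCGGCCCGGG
All 5 motifs lay on the strand of their gene. A motif in a region need not lie under the peak summit. In ZFPM1 the summits of all 5 libraries, chr16:88519477 to 88519587, lay downstream of the printed stretch with its only motif. In LYL1 the summits of 1c and 2b lay inside the motif and those of 1a, 2a and 2c outside it. The summits of all 5 libraries lay outside the motifs in TAL1 and KLF1 too. Distances from summits to motifs were not computed. In TAL1, 2 motifs lay next to each other at the end of the region nearest the start site, parted by a single base in lower case.

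GATA matches, the letters AGATAA or TGATAA on either strand, were found in regions without a G4 motif. The TAL1 and LYL1 regions above held them as well as a G4 motif, and they are not in capitals there. In the next set, which has no G4 motif, the GATA matches are in capitals (TTATCT and TTATCA are the same letters read on the other strand). The NFE2 region was chr12:54689618-54689783, the ZFPM1 region in intron 3 was chr16:88564232-88564516, and the GATA1 peak, found in library 2c alone, was chrX:48644355-48644461.
NFE2 region at the downstream start sites: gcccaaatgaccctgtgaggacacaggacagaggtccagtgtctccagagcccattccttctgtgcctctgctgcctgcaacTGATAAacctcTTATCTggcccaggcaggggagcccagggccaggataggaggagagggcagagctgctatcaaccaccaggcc
ZFPM1 region in intron 3: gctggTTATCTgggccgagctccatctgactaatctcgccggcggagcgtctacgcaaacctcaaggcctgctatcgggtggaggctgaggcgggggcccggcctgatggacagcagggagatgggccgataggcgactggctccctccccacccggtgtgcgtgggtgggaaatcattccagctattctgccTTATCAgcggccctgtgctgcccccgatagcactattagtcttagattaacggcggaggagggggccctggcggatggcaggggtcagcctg
GATA1 peak of library 2c: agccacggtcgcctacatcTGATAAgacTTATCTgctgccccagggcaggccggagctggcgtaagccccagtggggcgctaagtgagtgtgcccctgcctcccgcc
Each of the 3 held 2 matches. In NFE2 and GATA1 the 2 matches stood on opposite strands a few bases apart. From mouse work, a palindromic GATA site upstream of Gata1 is known, whose deletion removes eosinophils.

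The GATA2 region chr3:128206789-128206916 and the part of the RUNX1 proximal promoter region outside untranslated exon, chr21:36260988-36261218, held neither a G4 motif nor a GATA match by these letters, and are shown for contrast, all in lower case.
GATA2 start-site region: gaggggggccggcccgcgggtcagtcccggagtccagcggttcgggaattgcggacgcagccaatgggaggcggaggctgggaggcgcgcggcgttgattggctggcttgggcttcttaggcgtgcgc
RUNX1 proximal promoter region: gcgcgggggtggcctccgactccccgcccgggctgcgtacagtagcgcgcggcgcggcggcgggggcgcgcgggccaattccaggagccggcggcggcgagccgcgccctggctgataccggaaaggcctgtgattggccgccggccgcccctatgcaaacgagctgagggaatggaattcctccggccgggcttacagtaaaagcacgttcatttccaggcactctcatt
Both hold G-rich and C-rich stretches, but not 4 runs of G that are long and close enough for the motif.

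Of the 10 factors, 7 had a high-confidence region within 1 kb of a start site: GATA2, TAL1, LYL1, NFE2, ZFPM1, RUNX1 and GFI1B. Such a region was found at 34.9% of all 19769 protein-coding genes. KLF1 had a region inside the gene only, so 8 factors had one at a start site or inside, against 37.7% of all genes. A start-site region present in all 5 libraries was found at TAL1, LYL1, NFE2, ZFPM1 and RUNX1, 5 of the 10, against 22.3% of genes. A peak in at least 1 library was found at 9 factors, all but LMO2, against 53.1% of genes. The factors are a short list, and these counts describe them without a test.

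The factors' genes had a median length of 14855.5 bp against 26948 bp over all protein-coding genes, but LMO2, GFI1B, ZFPM1 and RUNX1 were longer than the median over all genes. The factors' median number of annotated start sites was 3.5 against 3. The background differed with CpG islands, the GC-rich and CpG-rich stretches at many promoters: 45.4% of genes with a strict island (windows of 500 bp, GC share of at least 0.55, observed over expected CpG of at least 0.65) at a start site had a region there, against 2.46% of genes without. Of the 7 factors with such an island, 5 had a start-site region (GATA2, TAL1, ZFPM1, RUNX1 and GFI1B). In GFI1B the 2 lay apart: the island was at the outermost start site and the region at start sites 33100 bp downstream, without an island. KLF1 and LMO2 had an island and no start-site region. Of the 3 factors without one, LYL1 and NFE2 had a start-site region and GATA1 had none. The LYL1 region in all 5 libraries lay in an island under looser limits (windows of 200 bp, GC share of at least 0.5, observed over expected CpG of at least 0.6). Neither NFE2 region lay in any island, nor did the GFI1B region. Counted by groups of start sites no more than 1 kb apart, 5 of 13 groups with a strict island had a region, and 4 of 11 without.

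**Figure D1:**
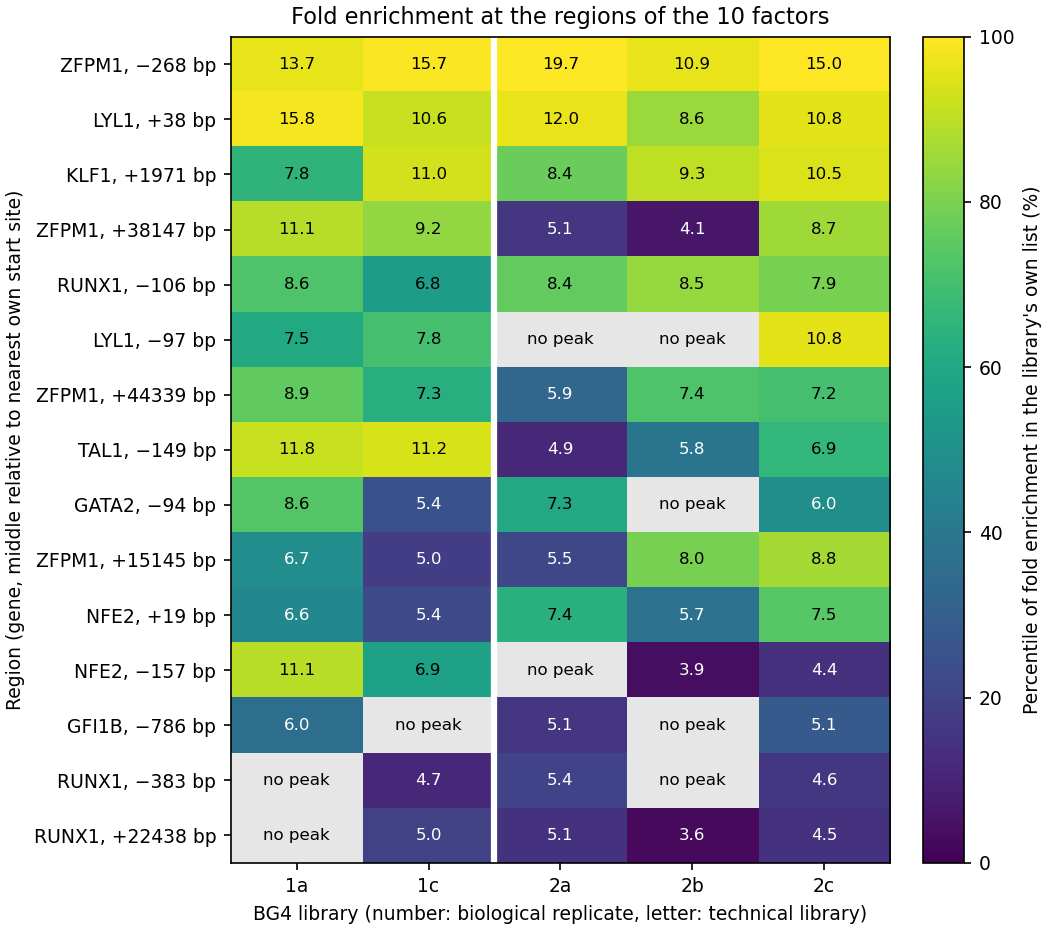
Fold enrichment at the 15 high-confidence regions (rows, named by gene and by the distance of the region's middle from the nearest start site of that gene, negative upstream) in the 5 libraries (columns); the number is the authors' fold and the colour its percentile within that library's own list. Rows are ordered by median percentile, highest at the top, so low percentiles gather in the lower rows by that order. The ZFPM1 region at −268 bp is above the 96th percentile in every library, and most missing peaks are in the lower rows.

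ZFPM1, the GATA1 cofactor, had the highest fold enrichment of the 10 factors in 4 of the 5 libraries. Its start-site region was 660 bp wide, wider than 99.4% of all regions, and its middle lay 268 bp upstream of the outermost start site. It reached 62 bases into exon 1. The authors' fold enrichment, the signal at a peak's summit over the local background, was 13.7 in 1a and 15.7 in 1c, and 19.7 in 2a, 10.9 in 2b and 14.99 in 2c. Folds are comparable only within a list, so each was ranked in its own: this peak stood 483rd of 12495 in 1a, 55th of 10079 in 1c, 2nd of 8059 in 2a, 289th of 9026 in 2b and 25th of 11111 in 2c. Its percentile was 98.3 ± 0.73 (SD, n = 2 biological replicates, technical libraries averaged first). The summits fell within 110 bp of each other. The region had a GC content of 76.8% and held 14 GC boxes (GGGCGG, either strand), the letters that SP and KLF factors bind.

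ZFPM1 also had 3 regions inside the gene, over 1 kb from its start sites. At least 1 such region was found in 3 factors (KLF1, ZFPM1 and RUNX1), against 5.64% of genes. Having 3 or more was limited to ZFPM1 among the factors, against 0.314% of genes. The ZFPM1 gene spans 83752 bp, and the part of gene length in these counts was not tested. The middles lay 15145 bp (intron 1, chr16:88535103-88535256), 38147 bp (intron 3, chr16:88558000-88558364) and 44339 bp (intron 3, chr16:88564232-88564516) downstream of the nearest start site, and each was present in all 5 libraries. The start of the microRNA gene MIR5189 also lay within 1 kb of the first of them.

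The rank of these internal regions within the lists differed from library to library. The one 38147 bp downstream had folds of 11.1 in 1a and 9.15 in 1c, and 5.12 in 2a, 4.12 in 2b and 8.66 in 2c, with percentiles between 6.19 and 89.3. It stood high in 1a, 1c and 2c and low in 2a and 2b. The one 44339 bp downstream, with the 2 GATA matches, lay between the percentiles 33.2 and 75.7, lowest in 2a. The one 15145 bp downstream lay between 18.1 and 86.5, high in 2b and 2c and low in 1c and 2a. Elsewhere in the gene, peaks outside the high-confidence list formed 12 further stretches in ZFPM1, more than in each of the other factors. Counting these peaks only, 11 of the stretches were in 1 library each. The stretch chr16:88564720-88564915, in 1a, was also overlapped by the 1c peak of the region 44339 bp downstream. The summit of that 1c peak, chr16:88564590, lay outside the region it was counted for.

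**Figure D2:**
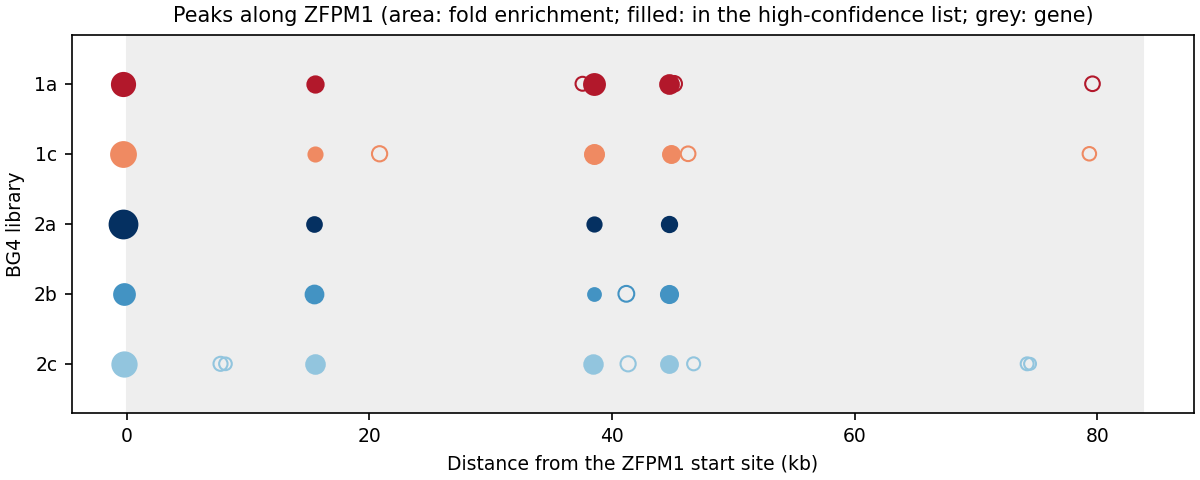
Peaks along ZFPM1 in the 5 libraries (rows) against distance from its outermost start site in kb; circle area is the authors' fold enrichment, filled circles are peaks in the high-confidence list, open circles are other peaks, and grey is the gene. The 4 columns of filled circles are the 4 regions present in all 5 libraries, and the open circles are mostly in 1 library each.

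LYL1 came next. Its main region, chr19:13213428-13213839, was 412 bp wide and lay wholly in untranslated exon 1, with its middle 38 bp downstream of the nearest start site. Its folds were 15.8 in 1a and 10.6 in 1c, and 11.99 in 2a, 8.59 in 2b and 10.8 in 2c. It held the highest fold among the factors in 1a, and the ZFPM1 start-site region held it in the other 4 libraries. Its percentile was 93.9 ± 1.87 (SD, n = 2). A second region, chr19:13213984-13214159, lay 97 bp upstream of the outermost start site and was called in 3 libraries. In 2c a single peak of 740 bp covered both regions, so its fold of 10.8 counts for both. No separate peak was called there in 2a and 2b.

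TAL1, the other member of that pair of relatives, had a region of 273 bp with its middle 149 bp upstream of its outermost start site. Its folds were 11.8 in 1a and 11.2 in 1c, and 4.91 in 2a, 5.81 in 2b and 6.92 in 2c. Within their own lists these stood at percentiles of 91.6 and 93.8 in replicate 1 and of 11.6, 39.0 and 66.1 in replicate 2. All libraries of replicate 1 ranked it above all libraries of replicate 2, and its mean percentile was 65.8 ± 38.01 (SD, n = 2). The downstream TAL1 start site, 2454 bp farther on and also with a strict island within 1 kb, had no peak in any library. LMO2, which joins TAL1 or LYL1 to GATA factors, had no peak in any library at its 2 start sites or inside its 33502 bp. Its downstream start site had a strict island within 1 kb and a GC content of 66.2% over 500 bp on each side. A missing peak says only that none passed the authors' threshold at an unknown depth.

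Of the GATA factors, GATA2 had 1 region, with its middle 94 bp upstream of a start site and inside intron 1 of the longest transcripts. Its folds were 8.65 in 1a, 5.42 in 1c, 7.30 in 2a and 6.02 in 2c, and no peak was called in 2b. These stood between the percentiles 25.0 and 73.3 of their lists. The 9 start sites of GATA2 fall into 5 groups, 4 of them with a strict island within 1 kb. The region lay at the group that begins 4167 bp downstream of the outermost start site, and the other 4 groups had no peak in any library. GATA1 had 1 peak in 1 library: it was called in 2c with a fold of 4.82, at the percentile 21.5 of that list, with its summit at −573 bp from the nearest start site, the minus sign meaning upstream.

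**Figure D3:**
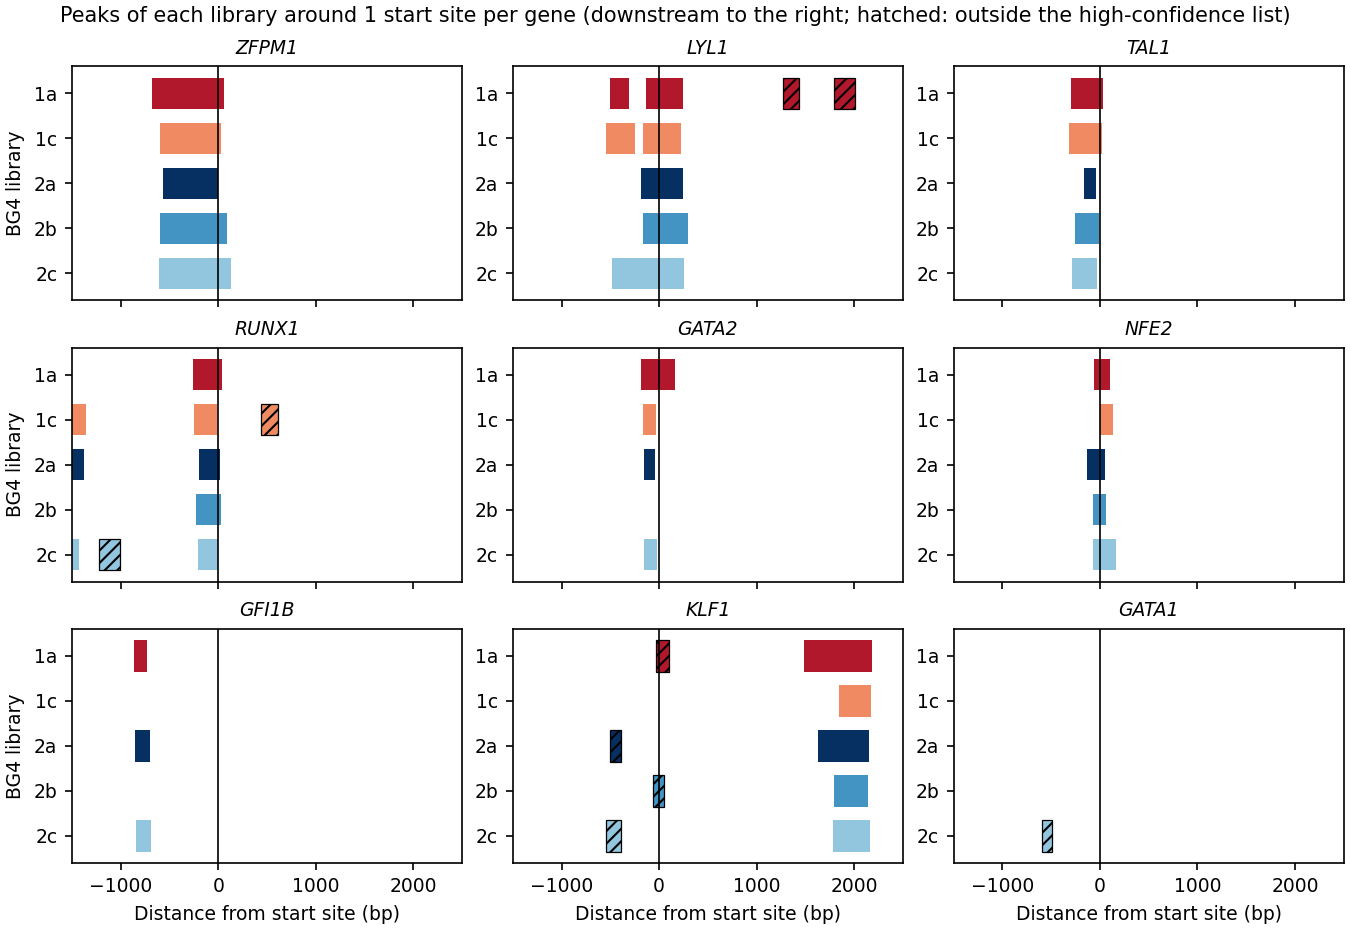
Peaks of each library (rows) against distance in bp from 1 start site of each factor with a peak, with downstream to the right and hatched bars for peaks outside the high-confidence list. ZFPM1, LYL1, TAL1, RUNX1 and NFE2 have bars in all 5 libraries at the start site, KLF1 has them downstream of it, and GATA1 has a single hatched bar.

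KLF1 differed from the other factors with a shared region in where it lay. The region of 382 bp, chr19:12995853-12996234, ran from exon 2 across intron 2 into exon 3, covered 126 coding bases, and had its middle 1971 bp downstream of the only KLF1 start site. Its folds were 7.84 in 1a and 11.0 in 1c, and 8.43 in 2a, 9.28 in 2b and 10.5 in 2c. It was lowest in 1a by rank and lay at or above the percentile 77.2 in the other 4 libraries, with a mean percentile of 83.3 ± 5.98 (SD, n = 2). At the KLF1 start site itself the libraries did not share a peak: 1a and 2b had one over the start site, 2a and 2c had one upstream of it, and 1c had none. These start-site peaks had folds of 4.19 to 5.92.

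NFE2 had regions at 2 of its 3 groups of start sites. The one at the outermost start site, chr12:54694691-54694868, was in all 5 libraries, with folds of 6.56 in 1a and 5.35 in 1c, and 7.43 in 2a, 5.70 in 2b and 7.46 in 2c. Those percentiles ran from 22.9 to 74.1, lowest in 1c and highest in 2c. COPZ1, which encodes a coat protein subunit, has a start site within 1 kb of that region, so the region cannot be given to NFE2 alone. The other NFE2 region, with the facing GATA matches, lay in intron 1 with its middle 157 bp upstream of the downstream start sites. Its folds were 11.1 in 1a, 6.94 in 1c, 3.88 in 2b and 4.43 in 2c, with no peak in 2a. Both libraries of replicate 1 ranked it above those of replicate 2, at percentiles of 89.6 and 57.4 against 3.88 and 14.2. It had no CpG and the lowest GC content of the 15 regions, 59.6%.

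RUNX1 spans 1216868 bp with start sites in 5 groups, and 2 of its 3 regions lay at the proximal ones. The region at the proximal promoter, chr21:36260967-36261218, was in all 5 libraries, with folds of 8.59 in 1a and 6.82 in 1c, and 8.40 in 2a, 8.50 in 2b and 7.93 in 2c. These stood between the percentiles 55.1 and 84.3, the lowest in 1c. A second region, chr21:36262415-36262525, was called in 1c, 2a and 2c only, at percentiles of 11.6 to 19.95. Its GC content of 80.2% was the highest of the 15. The third, chr21:36399076-36399182, lay in intron 2 between the distal and proximal start sites, 22438 bp downstream of the nearest one. It was called in every library but 1a, at percentiles of 2.71 to 19.4. The 4 distal start sites had no peak within 1 kb in any library.

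Of the factors' best regions, that of GFI1B ranked lowest, chr9:135853200-135853304. It was called in 1a, 2a and 2c with folds of 6.01, 5.12 and 5.11, at percentiles of 36.0, 15.8 and 28.4 of their lists. Its middle lay 786 bp upstream of the nearest start site. At the outermost GFI1B start site, which has a strict island within 1 kb, 2a and 2b had a peak and the other libraries had none. In all GFI1B had 5 stretches with peaks outside the high-confidence list, each in 1 or 2 libraries.

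Ordered by the median percentile of each factor's best region, ZFPM1 led, followed by LYL1, KLF1, RUNX1, TAL1, GATA2, NFE2 and GFI1B. Neighbours in that order were not set apart in every library. ZFPM1 had the higher fold than LYL1 in 4 of 5 libraries, LYL1 than KLF1 in 3 of 5, KLF1 than RUNX1 in 4 of 5, RUNX1 than TAL1 in 3 of 5, TAL1 than GATA2 in 3 of 4 and GATA2 than NFE2 in 2 of 4. NFE2 stood above GFI1B in all 3 libraries that called both.

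Over the 15 regions, 10 lay at start sites, against 76.6% of all high-confidence regions, and 9 were present in all 5 libraries, against 55.0%. A strict island held 8 of the 15, against 83.2% of all regions. Their median width was 178 bp against 205 bp, and their median GC content was 66.9% against 70.1%, with a range of 59.6% to 80.2%. Of the 98 peaks, 65 lay in the high-confidence regions. The other 33, counted by themselves, formed 27 stretches, 21 of them in 1 library and 6 in 2. The matching share of all 50770 peaks was not counted, so whether these counts are usual is not known.

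**Figure D4:**
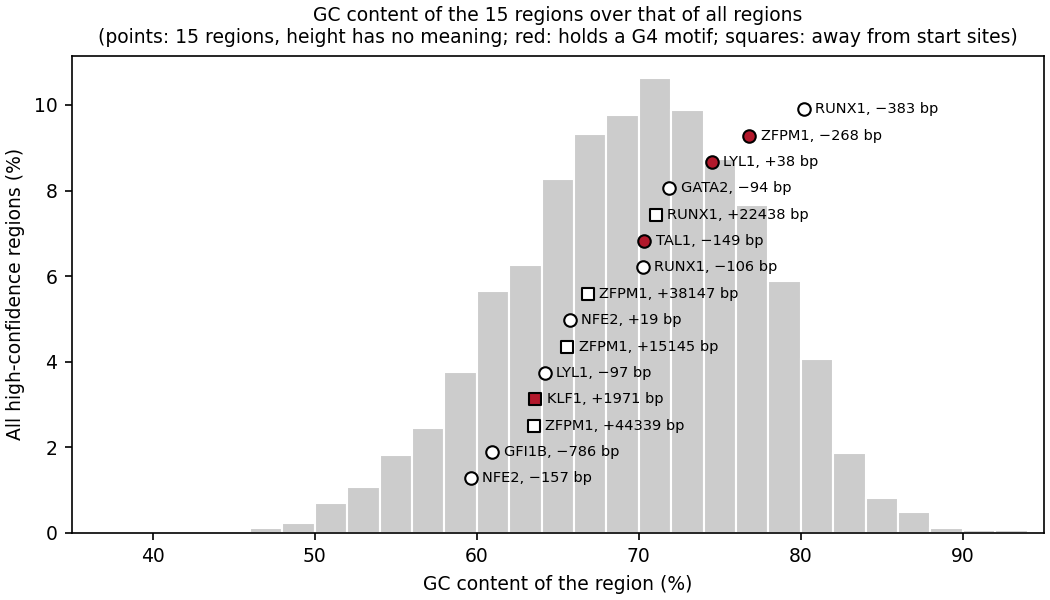
GC content in percent of the 15 regions (points, named by gene and distance from the nearest start site) over the histogram of all 8940 compared regions (grey bars, share in percent); red points hold a G4 motif, squares lie away from start sites, and the height of a point has no meaning. The points run from 59.6% (NFE2) to 80.2% (RUNX1), and red points are found both above and below the median of 70.1%.

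A G4 motif was held by 4 of the 15 regions, those of TAL1, LYL1, ZFPM1 (start site) and KLF1 printed above, against 34.7% of all regions. Within 100 bp of the region's middle the count was 3 of 15, against 34.0%: it no longer took in TAL1 and the ZFPM1 start site, and took in a motif at the ZFPM1 region in intron 1 that reaches beyond its edges. The KLF1 and TAL1 regions with a motif had GC contents of 63.6% and 70.3%, while the RUNX1 region with the highest GC content had no motif. In start-site regions 4 of 4 motifs lay on the strand of the gene, against 54.6% of such motifs over regions with start sites of 1 strand. These 4 come from 3 regions.

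GATA matches within 100 bp of the middle were found in 5 of the 15 regions (TAL1, LYL1 main, NFE2 downstream, ZFPM1 at 44339 bp and RUNX1 at 22438 bp, there outside the region's own 107 bp), against 6.59% of all regions. The median GC content of the factors' regions was also lower, 66.9% against 70.1%, and the part of base composition in this count was not tested. E-boxes were found in 5 of 15 (TAL1, KLF1, NFE2 downstream, ZFPM1 at 15145 bp and GFI1B), against 43.1%. GC boxes were found in 9 of 15, against 74.5%. A match is a string of letters and not a measured binding site. The TAL1 region and the downstream NFE2 region were the 2 that held both a GATA match and an E-box within that distance.

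The wider list of 46 cofactors, dimer partners, paralogs and other blood factors had a start-site region at 25 genes (54.3%), 20 of them in all 5 libraries, against 34.9% of protein-coding genes. Of these 46, 43 had a strict island at a start site, and 24 of the 43 had a region, against 45.4% of all genes with an island. Of the 8 genes listed as paralogs of the factors, 1 had a start-site region and 6 had no start-site peak. Of the other 38 partner genes, 24 (63.2%) had a start-site region. Among those others, the KLF1 relatives KLF3 and KLF13 and the NFE2 relative NFE2L2 had a start-site region in all 5 libraries. The paralog with a region was the LMO2 relative LMO4, in 3 libraries. GATA3 had a start-site peak in 1 library and no region. RUNX2, RUNX3, TAL2, LMO1, ZFPM2 and GFI1 had no start-site peak in any library, and RUNX2 had 2 regions inside the gene.

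Of the partner regions in all 5 libraries, that of ZBTB7A, a repressor of fetal globin, had the highest lowest percentile over the libraries, 90.3, although others reached higher folds in single libraries. It was a region of 82.1% GC that held 4 G4 motifs and had folds of 11.3 to 13.8. TCF12, an E protein that pairs with TAL1 and LYL1, had folds of 8.28 to 10.1 and 1 motif. SSBP2, which stabilises LDB1, had folds of 7.97 to 9.64 and 2 motifs. RCOR1, a corepressor that GFI1B recruits, had folds of 7.45 to 9.29 and 2 motifs. KLF3, a repressor that competes with KLF1, had folds of 7.21 to 11.7 and 6 motifs. The corepressor CBFA2T2, the NuRD subunit MTA2 and the NFE2 relative NFE2L2 also had a start-site region in all 5 libraries. BCL11A, another repressor of fetal globin, CBFB, the partner that stabilises RUNX1 on DNA, the NuRD helicase CHD4 and the ETS factor ELF1 had no start-site region, and CHD4 had 2 regions inside the gene.

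**Figure D5:**
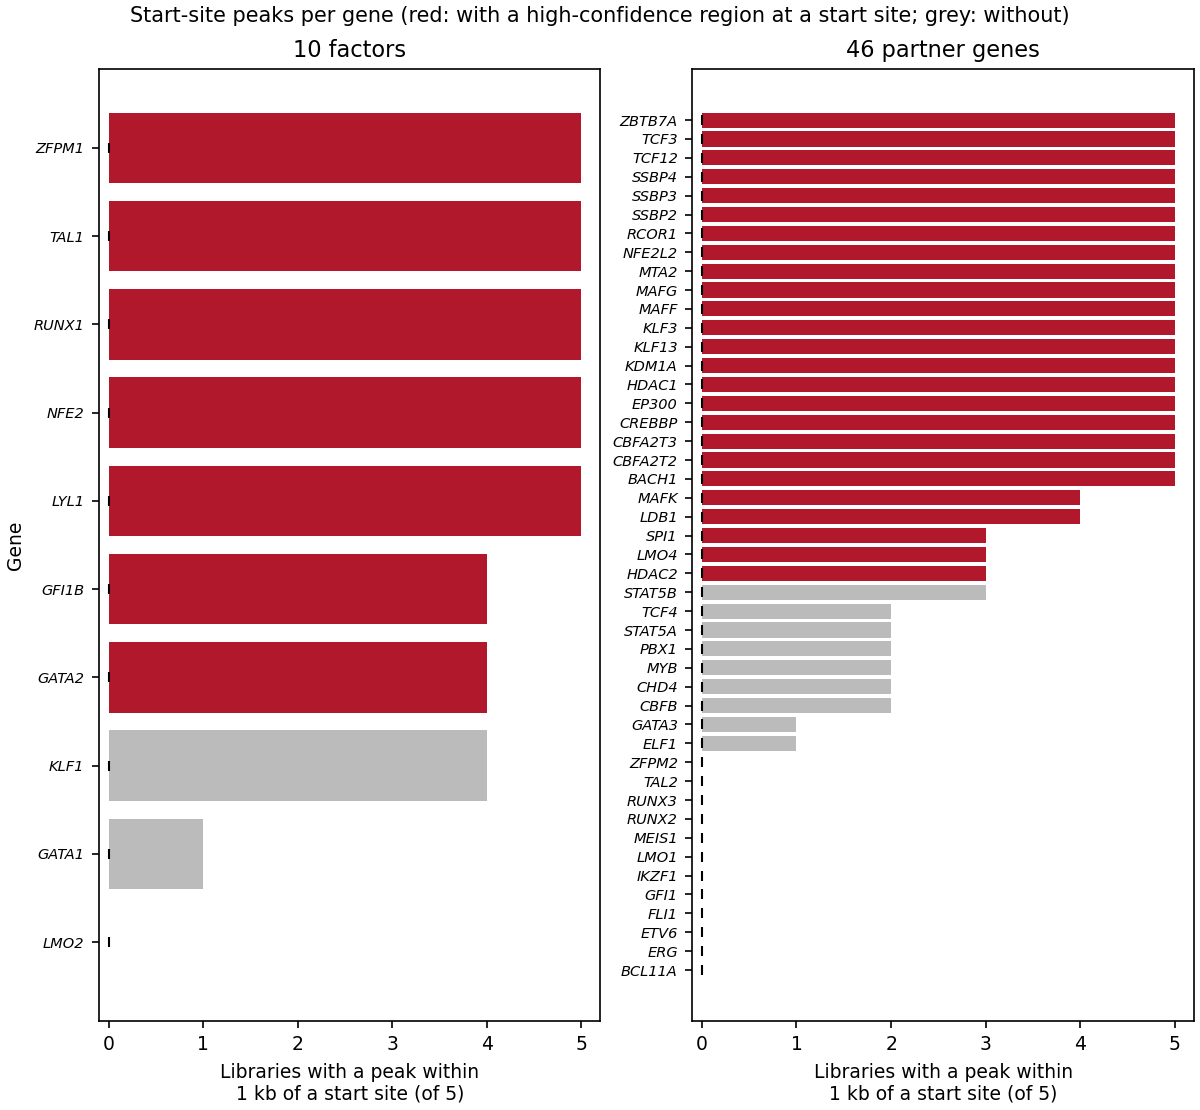
Number of the 5 libraries with a peak within 1 kb of a start site for the 10 factors (left) and the 46 partner genes (right), with red bars for genes with a high-confidence start-site region and grey bars for those without. Red bars stand at 7 of the 10 factors and 25 of the 46 partner genes.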

How the data were processed

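Peak lists of the 5 K562 BG4 libraries and 1 high-confidence list were used. The 2 K562 inputs and 8 HaCaT bisulfite libraries (4 control, 4 treated with entinostat) were not analysed here. Per the submitters' processing notes, MACS2 was used to call peaks on hg19. Which aligner, control library, settings and caller version were used is not given in the sources used here. The authors deposited for each peak a score, a fold enrichment (the ratio of summit signal to local background) and a −log10 p and −log10 q. The lowest deposited −log10 p was 5.00 to 5.05 in each list. These values rank peaks within their own list only. The number of reads per library, and so the depth, is unknown. In the files of 2a and 2c the peak names carry the other letter.

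Start sites came from protein-coding transcripts in GENCODE release 44 mapped to GRCh37, and 1 shared base counted as overlap. Start sites no more than 1 kb apart formed a group. Regions, CpG islands and motifs were computed with Python 3.11.15, pandas 2.3.3, numpy 2.4.6 and pysam 0.24.0, and the routines were tested on simulated data. Percentiles were averaged over technical libraries before the SD over 2 biological replicates. All 10 factors are named. Of the 46 partner genes the rule named 8 relatives of the factors (GATA3, RUNX2, RUNX3, TAL2, LMO1, LMO4, ZFPM2 and GFI1), up to 8 others with a region by number of libraries and lowest percentile, and 4 without in alphabetical order. KLF13 lies outside that rule and was chosen after its values were seen. The members, lists and settings were chosen with earlier results of these data known. Alternatives were a −log10 p of at least 10, presence in all 5 libraries, leaving out each library, other start-site windows and sets, other motif definitions and, chosen after seeing the data, each biological replicate alone.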

Additional observations from a re-analysis of the deposited data

How the results depend on the processing

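The counts of factors with a region at a start site or inside, of factors with any peak and of partner genes with a start-site region stayed within 1.5 times their value under each alternative run. The other counts and shares moved further under 1 alternative each. The median GC content stayed within that bound under its 1 alternative, and its shift is set beside a spread over replicates below. With presence in all 5 libraries required, the factors' regions numbered 9 in place of 15, and 22.3% of protein-coding genes in place of 34.9% had a start-site region. With the outermost start site alone, 4 factors (TAL1, LYL1, NFE2 and ZFPM1) in place of 7 had one, against 31.3% of protein-coding genes under that setting. With runs of 2 or more G, 14 regions in place of 4 held a G4 motif. Over 200 bp around the middle the median GC content was 64.5% in place of 66.9%. That shift was larger than the SD over biological replicates of the median GC of the factors' peaks, 0.457 percentage points (66.2% and 66.8%, n = 2). This SD is over called peaks and not over the 15 regions, and does not measure a change of window. These alternatives ask for more libraries, fewer start sites, shorter runs or another window. Whether anything else had a part in the shifts was not tested.

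The count of 7 factors with a start-site region ranged from 6 to 7 when 1 library was left out. GFI1B lost its region without 1a, without 2a or without 2c, at a −log10 p of at least 10, within 500 bp and in biological replicate 1 alone. The GFI1B region had a peak in 3 libraries, and 3 were still required with 1 left out. Its loss without 1a, 2a or 2c therefore follows from the rule and adds nothing to that count. KLF1 gained a start-site region within 2 kb and in biological replicate 2 alone. The counts within 1 biological replicate were chosen after seeing the data. The count of 9 factors with any peak was 8 without 2c and 8 at a −log10 p of at least 10, since the GATA1 peak was lost. The unknown depth limits every missing peak.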
